A study of Mus musculus with 12 samples.

Results

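HOX cluster genes were examined in W-20 cells (W-20-17), a murine bone marrow stromal cell line, after exposure to parathyroid hormone (PTH). Members were the rows of the deposited count matrix whose Ensembl identifiers, with the version dropped, belong to mouse protein-coding genes named Hoxa, Hoxb, Hoxc or Hoxd with a number, which gave 39 of the 56980 genes. HOXA held 11 of them on chromosome 6, HOXB 10 on chromosome 11, HOXC 9 on chromosome 15 and HOXD 9 on chromosome 2. Poly-A RNA of 12 libraries was sequenced, 3 in each of 4 groups. W20_VEH and W20_PTH are unmodified cells given PBS vehicle or 50 nM PTH for 2 hours, and Y428F_VEH and Y428F_PTH are cells of a modified W-20 line given the same. Library totals were 17127897 to 19057319 counts.

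The modified line was made, per the study's methods, by introducing a plasmid for Flag-tagged YAP, the transcriptional coactivator at the end of the Hippo pathway, in which the tyrosine that names the line was changed to phenylalanine. Cells that had taken it up were selected with puromycin. The titles name these libraries Y428F, although their genotype label reads WT, and they name the tyrosine change alone. The study's text on these RNA-Seq data also speaks of cells in which a serine of YAP was changed to alanine together with the tyrosine, so whether the plasmid carried both changes is not settled here. No library from cells given unmutated YAP was analysed here, so effects of the mutation cannot be told apart from those of plasmid, selection or passage. The labels do not say that replicates came from separate cultures, so the p-values measure the spread between these libraries, which may be technical.

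HOX genes encode homeodomain transcription factors that lie side by side in clusters and share the paralog numbers by which they are named. Along the body axis and the limbs, genes of low number are active towards the head or trunk and those of high number towards the tail or the ends of the limbs, and cultured stromal cells keep much of the HOX pattern of the place they came from. Polycomb proteins hold clusters silent, Trithorax proteins keep them active, and PBX, MEIS and PREP proteins bind DNA together with HOX proteins. PTH acts through a receptor that raises cAMP, whose nuclear effector CREB binds the cAMP response element, and YAP acts through TEAD proteins at sites of their own.

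The stretch before the transcription start is shown for 3 genes whose changes with PTH are described further on, Hoxa6, which was lower with PTH in W20 cells, and a pair that was higher (Hoxa9 in both lines, Hoxc13 in Y428F cells). Each is the 150 bases upstream of the canonical transcript's start in GRCm39, 5′ to 3′ on the gene's strand, and no annotated exon overlaps it. Capitals mark matches on either strand to the letters of the cAMP response element (TGACGTCA), its half-site (TGACG), a TEAD site (GGAATG), a PBX-HOX site (TGATTNAT), a TATA box (TATAAA) or a CCAAT box (CCAAT). A full cAMP response element holds the half-site on both strands.
Hoxa6, chr6:52185703-52185852, minus strand: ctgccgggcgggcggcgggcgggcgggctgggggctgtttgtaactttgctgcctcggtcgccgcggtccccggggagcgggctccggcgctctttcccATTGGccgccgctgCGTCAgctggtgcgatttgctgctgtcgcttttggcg
Hoxa9, chr6:52204351-52204500, minus strand: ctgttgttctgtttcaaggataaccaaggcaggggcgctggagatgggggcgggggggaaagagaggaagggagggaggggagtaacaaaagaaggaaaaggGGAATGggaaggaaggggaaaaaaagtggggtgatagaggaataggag
Hoxc13, chr15:102829388-102829537, plus strand: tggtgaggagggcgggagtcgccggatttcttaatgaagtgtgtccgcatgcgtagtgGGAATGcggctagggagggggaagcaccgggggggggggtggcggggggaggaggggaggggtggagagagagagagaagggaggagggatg
Hoxa6 has a half-site and a CCAAT box, both read on the opposite strand. Hoxa9 and Hoxc13 each have the TEAD letters and no cAMP letters in this stretch. Such matches describe letters only, and binding was not measured.

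In windows of 300 bases, 250 before and 50 after the start, the full element was found in 1 of 39 HOX genes (2.56%, against 2.44% of 21770 protein-coding genes) and the half-site in 14 (35.9% against 22.6%). TEAD letters were found in 9 (23.1% against 14%), PBX-HOX letters in 3 (7.69% against 2.74%), the TATA box in 7 (17.9% against 13.2%) and the CCAAT box in 27 (69.2% against 39.9%). Some other called genes differed from those shown: Hoxa11 and Hoxc11, higher with PTH in Y428F cells, each had 2 half-sites in these windows. Hoxa10 and Hoxa11 had no TEAD letters, Hoxc11 had them, and so did Hoxc8, which was lower. Hoxc6, lower with PTH in W20 cells, had no half-site and no TEAD letters. No relation between these letters and the direction of change with PTH was tested. The HOX windows had a median GC content of 57.33%, against 54.33% in all windows.

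Of the 39 genes, 26 had counts and 13 had 0 counts in all 12 libraries. All 11 HOXA and all 9 HOXC genes were detected, whereas HOXB was detected at Hoxb2, Hoxb3, Hoxb4, Hoxb5 and Hoxb6 and HOXD at Hoxd13 alone. The genes at 0 were Hoxb1, Hoxb7, Hoxb8, Hoxb9 and Hoxb13 and 8 of the 9 HOXD genes, Hoxd1 to Hoxd12. A count of 0 in a library allows a level of up to 3 counts, or 0.152 to 0.185 CPM depending on the library, for counting error only (CPM are read counts scaled to library size, here with TMM factors). All 26 detected genes passed the filter of 10 counts in total and were tested. Reads of overlapping genes are a limit here: 9 of the 39 genes share exon sequence with another gene on their own strand and 19 with an antisense gene, and the labels name both a directional and a non-directional protocol, so reads from a gene and its antisense partner cannot be told apart.

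The high-numbered paralogs of HOXA and HOXC were the most abundant HOX genes of these cells. On the scale of CPM per kb of exon, the one used to compare genes, the mean level over 12 libraries was 81.8 for Hoxa11, 37.1 for Hoxa10, 23.0 for Hoxc11, 22.9 for Hoxc10, 12.3 for Hoxa9 and 10.5 for Hoxc13. Hoxa11, which patterns the forearm and lower leg, made up 36.0% of the summed HOX level, and these 6 genes together 82.5%. Hoxc11 and Hoxc10 cannot be ordered, since their libraries ranged from 19.9 to 29.8 and from 13.7 to 30.2. How far Hoxa9 lay below them depends on the exon length used. Its exon union is 5580 bases and its longest transcript 3226, whereas these lengths are equal for Hoxc10 and for Hoxc11. Hoxc6 (6.03) and Hoxa7 (6.00) came next, and the remaining 18 detected genes lay between 3.81 (Hoxc9) and 0.0339 (Hoxd13). Hoxa13, the neighbour of Hoxa11 and the gene of the hand and foot, stood at 1.21. Hoxa11 was higher than all but 356 of 21631 protein-coding genes (1.65%) and Hoxa10 than all but 939 (4.35%), on the same scale.

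**Figure D1:**
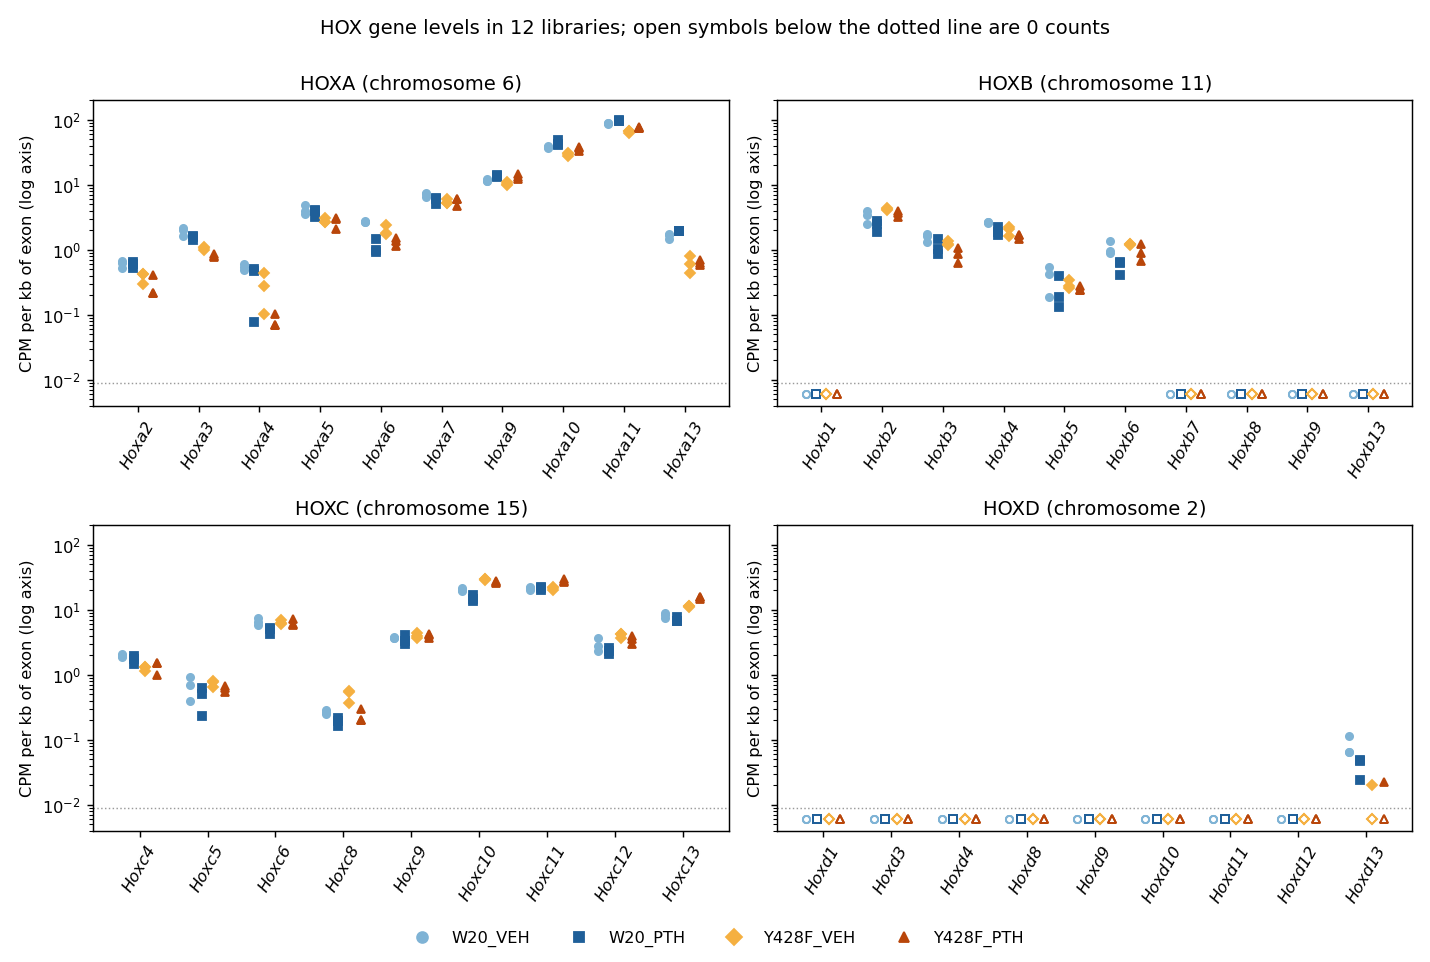
Level of 38 of the 39 HOX genes in single libraries, as CPM per kb of exon on a log axis, in order of paralog number within each cluster, with colours and symbols for the 4 groups and open symbols for 0 counts. Levels are highest at Hoxa11 in HOXA and at Hoxc10 and Hoxc11 in HOXC, and are at 0 for 5 HOXB and 8 HOXD genes in every library.

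HOXA gave the largest summed level in every group. Its share of the summed HOX CPM per kb was 67.9% ± 0.69 (SD, n = 3) in W20_VEH, 73.3% ± 0.82 in W20_PTH, 57.8% ± 1.2 in Y428F_VEH and 59.8% ± 0.52 in Y428F_PTH. HOXC took 28.3% ± 0.85, 24.0% ± 1.1, 37.9% ± 1.1 and 37.1% ± 0.58 in the same order, and HOXB 3.83%, 2.68%, 4.32% and 3.13%. In summed level rather than share, HOXA stood at 159 ± 0.89 CPM per kb in W20_VEH, 172 ± 3.0 in W20_PTH, 121 ± 4.8 in Y428F_VEH and 139 ± 4.8 in Y428F_PTH, and no 2 groups overlapped. HOXC stood at 66.1 ± 2.9, 56.3 ± 2.4, 79.1 ± 0.96 and 86.0 ± 1.1, again without overlap, so that the sum was lower with PTH in W20 cells and higher with PTH in Y428F cells. HOXB was lower with PTH in both lines, at 8.95 ± 0.73 and 6.29 ± 0.73 in W20 and 9.00 ± 0.26 and 7.26 ± 0.36 in Y428F. The sums are dominated by their most abundant members, Hoxa11, Hoxa10, Hoxc10 and Hoxc11, and carry no test. The most abundant HOXC genes did not move together. Hoxc10 went from 20.4 to 15.0 CPM per kb with PTH in W20 cells and from 29.5 to 26.7 in Y428F cells. Hoxc11 stood at 21.3 with and without PTH in W20 cells and went from 21.3 to 27.9 in Y428F cells. Hoxc13 went from 8.22 to 7.06 in W20 cells and from 11.3 to 15.3 in Y428F cells.

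**Figure D2:**
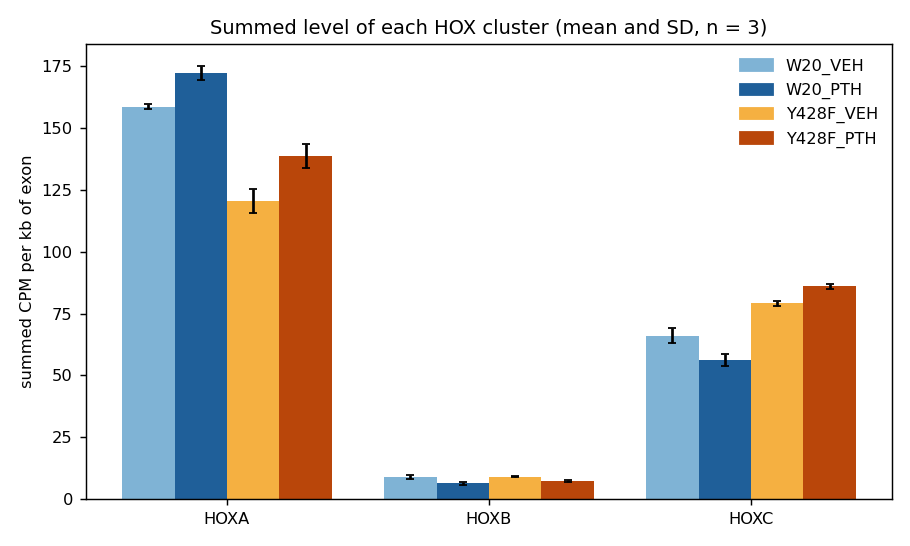
Summed CPM per kb of exon over the genes of HOXA, HOXB and HOXC in the 4 groups, as mean (bars) and SD (error bars) of 3 libraries; HOXD, at 0.0811 or less, is not drawn. HOXA is lower and HOXC higher in Y428F than in W20 cells, and with PTH the HOXC bar is lower in W20 cells and higher in Y428F cells.

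Whether PTH moved HOX genes in unmodified cells was asked of the 6 W20 libraries. Changes are log2 fold changes from edgeR's quasi-likelihood test, and a gene was called at an adjusted p under 0.05 over all 15583 genes tested. Of the 26 HOX genes, 1 was called higher with PTH and 3 lower, where 6.88% of all genes were called higher and 4.91% lower. Hoxc10, Hoxa6 and Hoxc6 fell and Hoxa9 rose.

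Hoxc10, a trunk and hindlimb patterning gene, was at 39.3, 41.5 and 44.8 CPM in W20_VEH and at 34.1, 29.95 and 28.0 CPM in W20_PTH. All 3 PTH libraries lay below all 3 vehicle libraries, and the log2 fold change was -0.44 (SE 0.089, edgeR adjusted p = 0.00567). Hoxc10 shares 8.11% of its exon sequence with Hoxc5, so some of its reads may be divided between them. Hoxa6, a gene of the middle of the axis, was at 2.33, 2.33 and 2.42 CPM with vehicle and at 0.884, 1.29 and 0.815 CPM with PTH. It showed the largest called HOX change in this comparison, at -1.23 (SE 0.29, edgeR adjusted p = 0.0144), on 14 to 45 counts per library over the series. Hoxc6, another mid-axis gene, was at 16.1, 14.7 and 18.8 CPM with vehicle and at 13.2, 10.5 and 12.5 CPM with PTH. Its groups did not overlap either, and it fell by 0.45 on the log2 scale (SE 0.12, edgeR adjusted p = 0.0253).

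Hoxa9, best known from blood stem cells and leukaemia, was at 67.7, 63.8 and 64.7 CPM with vehicle and at 75.5, 73.9 and 79.5 CPM with PTH. The 3 PTH libraries were the higher ones, by 0.23 on the log2 scale (SE 0.067, edgeR adjusted p = 0.0414). This call was lost in 8 of 14 alternative settings, with adjusted p up to 0.126. Leaving out a single library took the number of HOX genes called to between 1 and 7. Hoxc10 alone was called without the third W20_VEH or the first W20_PTH library, Hoxc10 and Hoxa6 without the second W20_PTH library, and 7 genes without the first W20_VEH library, so of the 4 only Hoxc10 was called under every library left out.

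The uncalled members had values on one side at low paralog numbers. All 16 tested genes of paralogs 1 to 8 had a fold change below 0 in W20 cells, with a median of -0.45 and a range of -1.23 to -0.04, and 2 of them were called. Of the 10 tested genes of paralogs 9 to 13, 5 were above and 5 below 0. In HOXA the sign followed the number: the genes up to Hoxa7 lay between -1.23 and -0.04, and Hoxa9, Hoxa10, Hoxa11 and Hoxa13 between 0.15 and 0.26. The median of all 26 HOX genes was -0.31, beside -0.01 for all genes tested, of which 47.2% were above 0. Low-numbered genes were also among the least abundant, such as Hoxa4 on 2 to 17 and Hoxb5 on 6 to 27 counts per library. The signs of HOXA and HOXB were the same when library totals or DESeq2's size factors replaced TMM, whereas Hoxc11 went below 0 and the Hoxa9 call was lost with library totals.

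In Y428F cells, 5 HOX genes were called higher with PTH and 1 lower, beside 6.61% and 5.78% of the 17691 genes tested in the fit of all 12 libraries. Hoxc13, Hoxc11, Hoxa9, Hoxa10 and Hoxa11 rose, all of paralogs 9 to 13, and Hoxc8 fell. The genes called lower in W20 cells, Hoxa6, Hoxc10 and Hoxc6, had log2 fold changes of -0.58, -0.14 and -0.01 in Y428F cells. They did not pass the test there (edgeR adjusted p = 0.192, 0.243 and 0.974). None of them was called for the difference in response between the lines (edgeR adjusted p = 0.801, 0.418 and 0.525). Hoxc13, a gene of hair follicles and nails as well as of the tail end of the axis, was at 27.8, 27.4 and 28.0 CPM in Y428F_VEH and at 38.0, 36.3 and 38.6 CPM in Y428F_PTH. The groups were far apart relative to their spread, with a log2 fold change of 0.44 (SE 0.082, edgeR adjusted p = 0.00106). Hoxc11, a hindlimb and tail gene, was at 40.6, 44.1 and 44.5 CPM with vehicle and at 60.3, 53.8 and 55.1 CPM with PTH. It rose by 0.39 on the log2 scale (SE 0.069, edgeR adjusted p = 0.000653).

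Abundant HOXA genes rose too. Hoxa9 was at 56.4, 61.8 and 57.4 CPM in Y428F_VEH and at 74.1, 68.6 and 81.5 CPM in Y428F_PTH, which is 0.35 on the log2 scale (SE 0.066, edgeR adjusted p = 0.00106). Hoxa10, which patterns the thigh and the uterus, was at 97.6, 102 and 93.1 CPM and then 121, 111 and 124 CPM, or 0.28 on the log2 scale (SE 0.067, edgeR adjusted p = 0.00714). That call was lost in 2 of 20 alternative settings, with adjusted p up to 0.0501. Hoxa11 was at 155, 155 and 146 CPM and then 176, 172 and 179 CPM, or 0.21 (SE 0.050, edgeR adjusted p = 0.00781). The vehicle and PTH libraries of these genes did not overlap. In W20 cells Hoxa10 was at 131, 122 and 127 CPM with vehicle and 138, 141 and 162 CPM with PTH. Hoxa11 was there at 202, 205 and 205 CPM and then 226, 227 and 223 CPM. Neither passed the test in W20 cells, with log2 fold changes of 0.22 and 0.15 (edgeR adjusted p = 0.0638 and 0.1), although Hoxa10 was called in 5 of 14 alternative settings, with adjusted p down to 0.0169.

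Hoxc8, a gene of the chest region, fell by 1.06 on the log2 scale in Y428F cells (SE 0.33, edgeR adjusted p = 0.0413), from 1.70, 1.62 and 1.09 CPM to 0.610, 0.617 and 0.881 CPM. It rests on 8 to 32 counts per library over the series and lost its call in 8 of 19 alternative settings. Paralogs 1 to 8 were below 0 in 14 of 16 genes, with a median of -0.30. Paralogs 9 to 13 were above 0 in 8 of 10, with a median of 0.13, where 48.6% of all genes tested were above 0. With library totals, paralogs 9 to 13 were above 0 in 6 of 10, as Hoxa13 and Hoxc9 went below 0. All 5 HOXB genes tested were below 0 with PTH in both lines. They lay between -0.90 and -0.43 in W20 and between -0.57 and -0.21 in Y428F, and none of them was called in either. Hoxb2 was called in W20 cells in 2 of 14 alternative settings, with adjusted p down to 0.00932. Its W20 value lay between -0.60 and -0.28 with a library left out.

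**Figure D3:**
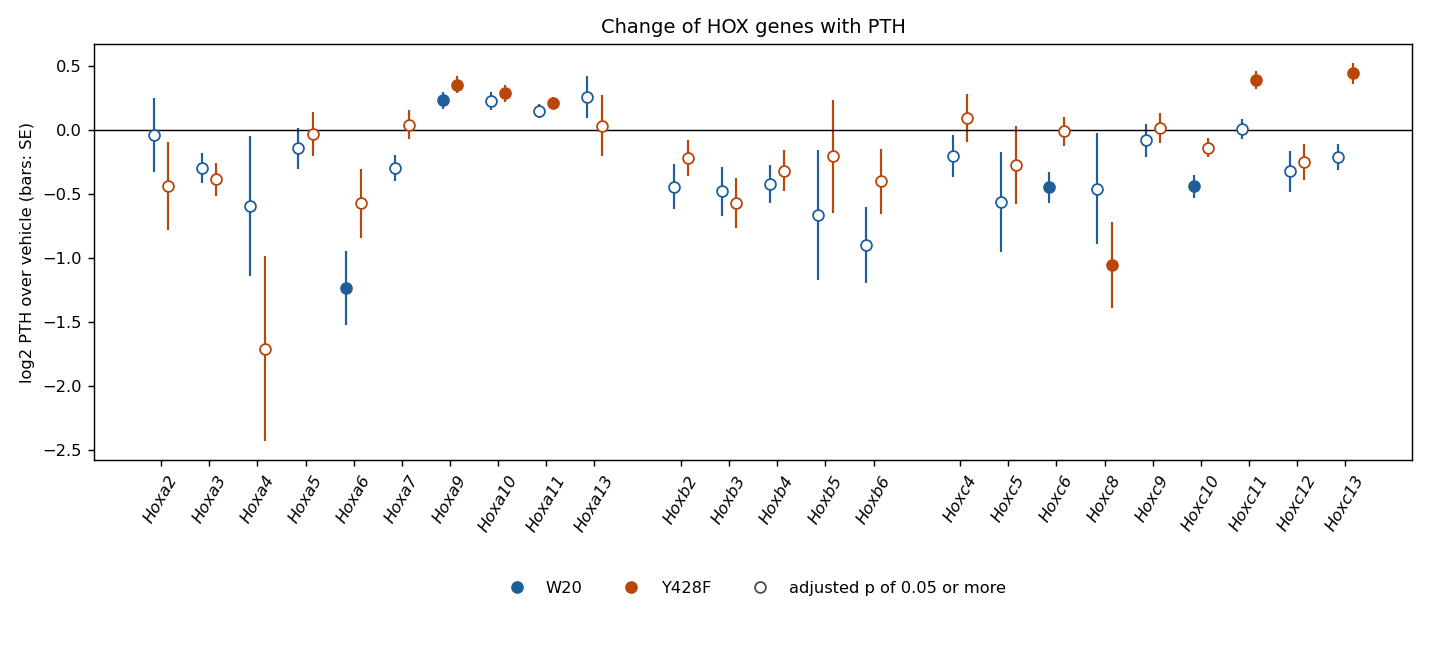
Log2 fold change with PTH (points, PTH over vehicle) and its standard error (bars) for 24 tested HOX genes in W20 and Y428F cells, in order along each cluster; filled points had an adjusted p under 0.05, and Hoxd13, at 0 to 5 counts, is left out. In HOXA the points of Hoxa9 to Hoxa11 lie above 0 in both lines, and Hoxc11 and Hoxc13 are filled and above 0 in Y428F cells.

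A test of the difference between the responses of the lines called 1 HOX gene, Hoxc13, with more increase in Y428F cells, where 0.17% of all genes were called in that direction and 0.243% in the other. Its level in W20 cells was 22.3, 18.1 and 20.3 CPM with vehicle and 16.5, 16.7 and 18.98 CPM with PTH, groups that overlapped and differed by -0.21 (SE 0.10, edgeR adjusted p = 0.21). The difference in response was 0.66 on the log2 scale (SE 0.12, 95% interval 0.42 to 0.90, edgeR adjusted p = 0.0162). Leaving out a single library kept it between 0.57 and 0.73, with adjusted p from 0.00718 to 0.068. The call was lost without W20_PTH replicate 1 or 2, any one of the Y428F_VEH replicates or Y428F_PTH replicate 3, where no HOX gene was called. Hoxc11, with 40.2, 45.0 and 44.0 CPM in W20_VEH and 43.9, 44.4 and 40.9 CPM in W20_PTH, had a difference in response of 0.39 (SE 0.098, edgeR adjusted p = 0.12). It was called with DESeq2 and without a filter on low counts. In all, 19 of 26 HOX genes had a difference above 0, including 8 of 9 in HOXC, beside 50.4% of all genes. Besides Hoxc13, Hoxa7, Hoxc6, Hoxc10 and Hoxc11 had an unadjusted p under 0.05 in edgeR's test, as had 1247 of the 17691 genes tested.

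**Figure D4:**
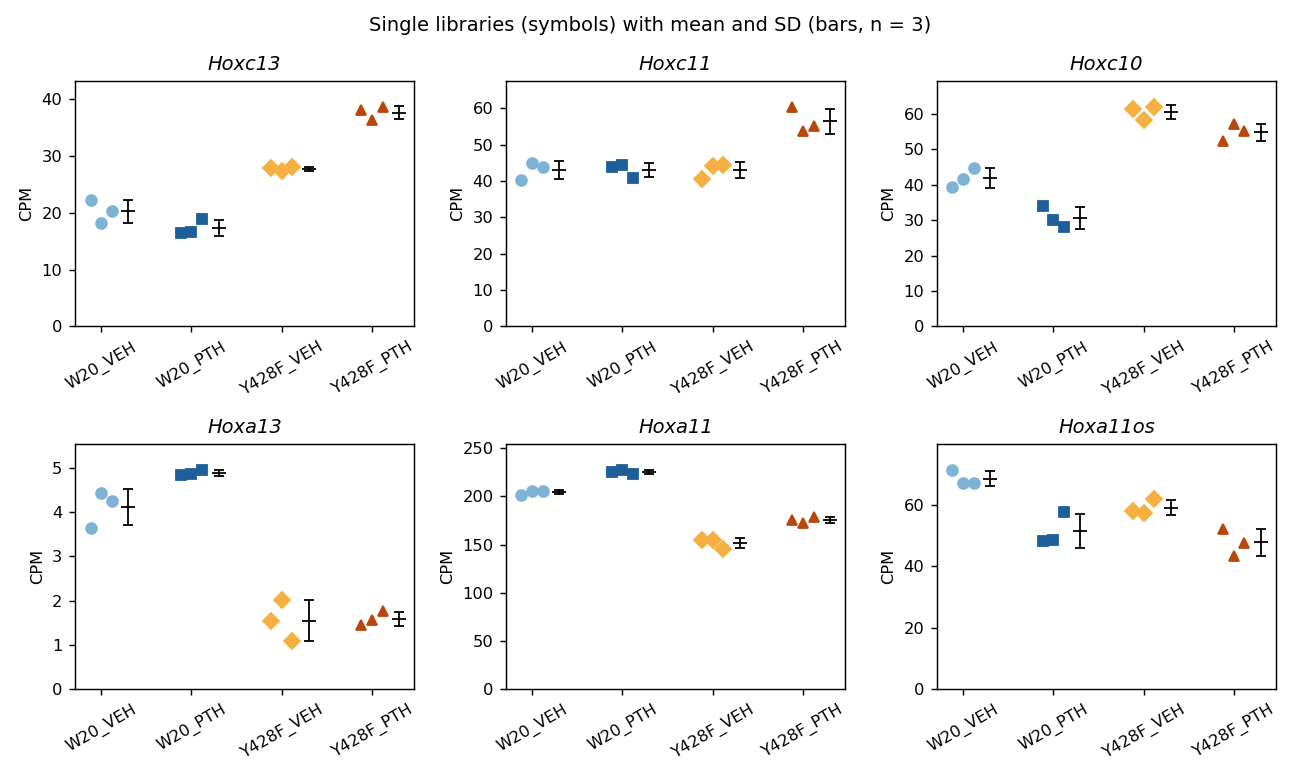
CPM of Hoxc13, Hoxc11, Hoxc10, Hoxa13, Hoxa11 and the antisense gene Hoxa11os in single libraries (symbols), with the mean and SD of 3 libraries (bars), in the 4 groups. Hoxc13 is at 36.3 to 38.6 CPM in Y428F_PTH, above the 9 other libraries, and Hoxa13 is at 1.09 to 2.02 CPM in the 6 Y428F libraries and at 3.65 to 4.95 CPM in the 6 W20 libraries.

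Between the lines, the called HOXA genes were all lower in Y428F cells, and the called HOXC genes were higher except Hoxc4 with vehicle. With vehicle, 5 of 26 HOX genes were called higher in Y428F cells and 9 lower, beside 22.4% and 22.7% of all genes. Without W20_VEH replicate 2, 9 were called, 2 higher and 7 lower. HOXA had 0 called higher and 6 lower, HOXC 4 higher and 1 lower, HOXB 1 of each (1 higher and 0 lower with library totals), and Hoxd13 was lower at trace level. With PTH, 7 were called higher and 7 lower, beside 22.8% and 23% of all genes, with 0 higher and 7 lower in HOXA, 5 higher and 0 lower in HOXC, and 2 higher in HOXB. These are bulk libraries, in which fewer cells of a type and less RNA per cell cannot be told apart. The comparisons between the lines share their libraries with those of PTH against vehicle.

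The chromosomes of the clusters also differed between the lines. With vehicle, the median log2 difference of Y428F over W20 was -0.17 over 576 expressed genes of chromosome 6, 0.21 over 489 of chromosome 15, 0.18 over 948 of chromosome 11 and -0.06 over 956 of chromosome 2, beside -0.01 over the 12038 genes that averaged 1 CPM or more. With PTH these were -0.12, 0.23, 0.18 and -0.05. The HOXA median of -0.44 and the HOXC median of 0.14 with vehicle thus had the sign of their chromosome, as did -0.36 and 0.41 with PTH. The HOXB median had the other sign with vehicle (-0.32) and the sign of its chromosome with PTH (0.07). Within 500 kb of HOXA, 3 of 3 tested protein-coding neighbours (Hibadh, Tax1bp1 and Skap2) were called lower in Y428F cells under both treatments. Around HOXB 8 of 15 were higher and 2 lower with vehicle, and 8 higher and 3 lower with PTH. Around HOXC 6 of 19 were higher and 1 lower with vehicle, and 6 higher and 3 lower with PTH, where 22.4% to 23% of all genes were called in each direction. The part of such chromosome-wide differences in the HOX values was not tested.

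**Figure D5:**
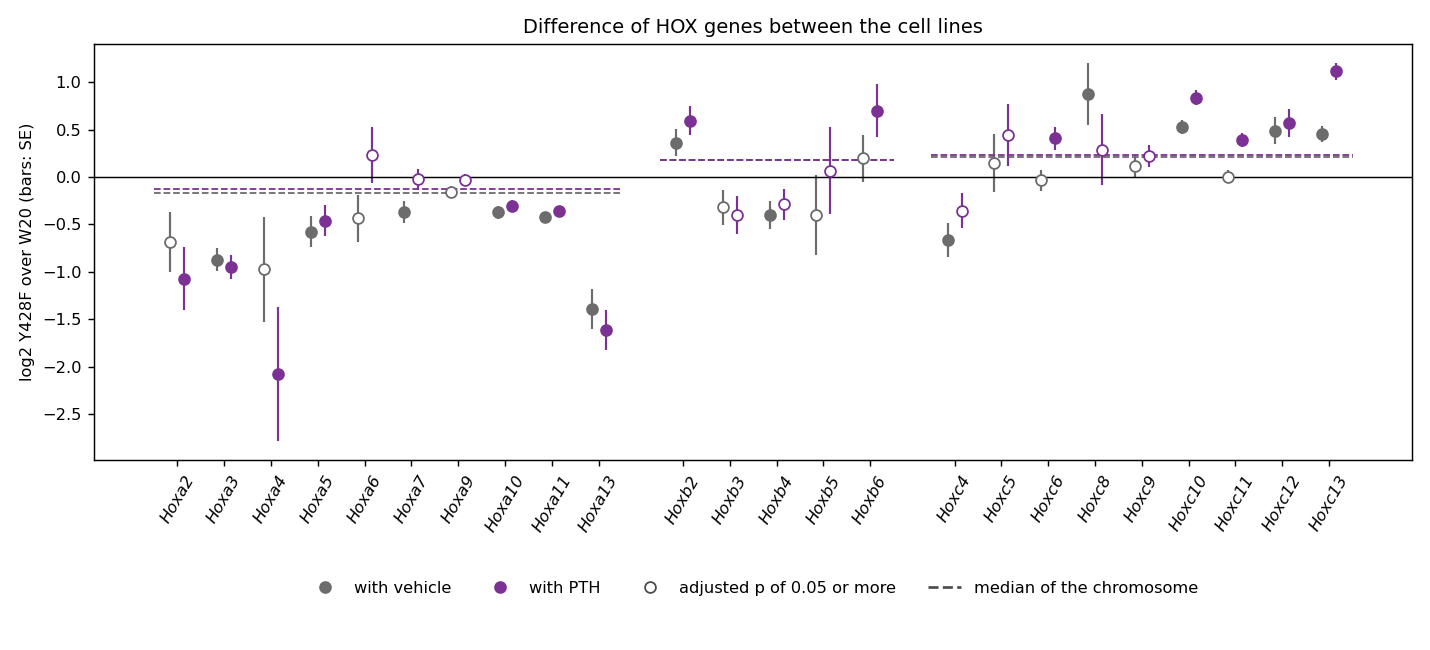
Log2 difference of Y428F over W20 (points) and its standard error (bars) for 24 tested HOX genes with vehicle and with PTH, in order along each cluster; filled points had an adjusted p under 0.05, dashed lines are the median of the cluster's chromosome, and Hoxd13 is left out. The filled points of HOXA all lie below the chromosome 6 medians of -0.17 and -0.12, and those of HOXC from Hoxc6 to Hoxc13 above the chromosome 15 medians of 0.21 and 0.23.

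Hoxa13 had the largest called HOXA difference with vehicle. It was at 3.65, 4.44 and 4.24 CPM in W20_VEH, 4.83, 4.86 and 4.95 in W20_PTH, 1.53, 2.02 and 1.09 in Y428F_VEH and 1.44, 1.57 and 1.76 in Y428F_PTH. The Y428F libraries were all below the W20 libraries, with a log2 difference of -1.40 with vehicle (SE 0.21, edgeR adjusted p = 1.35e-05) and -1.61 with PTH (SE 0.21, edgeR adjusted p = 1.96e-06). Measured from the median of chromosome 6, these differences were -1.23 and -1.49, and that of Hoxa11 with vehicle went from -0.43 to -0.26. Hoxa3, a gene of the neck and throat, was at 11.4, 15.0 and 13.7 CPM in W20_VEH and 6.95, 7.53 and 7.37 in Y428F_VEH. With PTH it was at 9.90, 11.4 and 11.0 CPM in W20 and 5.27, 5.45 and 6.00 CPM in Y428F cells. The differences were -0.87 (SE 0.12, edgeR adjusted p = 2.83e-06) and -0.95 (SE 0.12, edgeR adjusted p = 2.03e-06), with no overlap of the lines under either treatment.

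Hoxa5, which acts in the lung and shoulder region, was at 9.31, 6.71 and 7.41 CPM in W20_VEH and 5.81, 4.95 and 4.97 CPM in Y428F_VEH. The log2 difference was -0.58 with vehicle (SE 0.16, edgeR adjusted p = 0.00606) and -0.46 with PTH (SE 0.17, edgeR adjusted p = 0.0289), the latter call being lost in 5 of 19 alternative settings, with adjusted p up to 0.145. Hoxa2, which patterns the second branchial arch, was at 1.65, 1.35 and 1.57 CPM in W20_PTH and 0.555, 0.561 and 1.05 CPM in Y428F_PTH. Its difference with PTH was -1.07 (SE 0.33, edgeR adjusted p = 0.0111), and with vehicle, at 1.64, 1.76 and 1.34 against 1.10, 0.758 and 1.09 CPM, it did not pass the test. Among the abundant genes, Hoxa11 had a log2 difference of -0.43 with vehicle (SE 0.050, edgeR adjusted p = 4.37e-07) and -0.36 with PTH (SE 0.050, edgeR adjusted p = 4.03e-06), and Hoxa10 of -0.37 and -0.31. Hoxa7 was called with vehicle only (-0.37) and Hoxa4 with PTH only (-2.08), the latter on 2 to 17 counts per library and with overlapping groups. The Hoxa4 call was lost in 5 of 18 alternative settings, with adjusted p up to 0.0865. Hoxa6 and Hoxa9 were called under neither treatment.

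In HOXC, Hoxc10 had the smallest adjusted p with vehicle, at 61.2, 58.1 and 61.8 CPM in Y428F_VEH and 52.2, 56.9 and 55.1 CPM in Y428F_PTH against the W20 values given above. All 6 Y428F libraries were above all 6 W20 libraries, by 0.53 with vehicle (SE 0.073, edgeR adjusted p = 4.24e-06) and 0.84 with PTH (SE 0.076, edgeR adjusted p = 1.17e-08). Hoxc13 was higher in Y428F cells by 0.45 with vehicle (SE 0.085, edgeR adjusted p = 0.000158) and 1.11 with PTH (SE 0.086, edgeR adjusted p = 1.09e-09), or 2.16-fold. Hoxc11 had a difference of 0.00 with vehicle (95% interval -0.14 to 0.14) and was higher by 0.39 with PTH (SE 0.069, edgeR adjusted p = 8.32e-05). Hoxc12, a neighbour of the same end, was at 9.04, 7.56 and 12.0 CPM in W20_VEH and 12.2, 14.0 and 14.0 CPM in Y428F_VEH. With PTH it was at 7.61, 8.37 and 6.81 CPM in W20 and 12.7, 11.5 and 9.69 CPM in Y428F cells. The groups did not overlap, with differences of 0.49 (SE 0.14, edgeR adjusted p = 0.00737) and 0.57 (SE 0.15, edgeR adjusted p = 0.0035). Measured from the median of chromosome 15, the differences with vehicle were smaller, at 0.32 for Hoxc10, 0.28 for Hoxc12 and 0.25 for Hoxc13, and 5 of the 9 HOXC genes lay below that median.

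Hoxc4, at the other end of the cluster, was at 5.39, 5.06 and 4.88 CPM in W20_VEH and 2.96, 3.34 and 3.39 CPM in Y428F_VEH. It was lower in Y428F cells with vehicle (-0.66, SE 0.18, edgeR adjusted p = 0.00459) against the direction of its chromosome, and with PTH the value of -0.36 did not pass. Hoxc8 was at 0.793, 0.739 and 0.859 CPM in W20_VEH and at 0.590, 0.492 and 0.641 CPM in W20_PTH, and was higher in Y428F cells with vehicle by 0.88 (SE 0.33, edgeR adjusted p = 0.0334), a call lost in 9 of 18 alternative settings. With PTH its difference was 0.29 and did not pass. Hoxc6 was higher with PTH only (0.41, SE 0.12, edgeR adjusted p = 0.00817), at 14.5, 15.1 and 18.5 CPM in Y428F_PTH, and stood at -0.04 with vehicle. Hoxc5 and Hoxc9 were called under neither treatment, at 0.14 and 0.11 with vehicle and 0.44 and 0.22 with PTH.

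HOXB and HOXD contributed little. Hoxb2, a hindbrain gene and the most abundant of HOXB per kb, was at 13.6, 8.64 and 12.1 CPM in W20_VEH and 15.1, 14.9 and 14.3 CPM in Y428F_VEH. With PTH it was at 6.60, 8.73 and 9.84 CPM in W20 and 13.8, 11.2 and 13.1 CPM in Y428F cells. It was higher in Y428F cells by 0.36 with vehicle (SE 0.14, edgeR adjusted p = 0.0456) and 0.59 with PTH (SE 0.15, edgeR adjusted p = 0.003), the former call being lost in 9 of 19 alternative settings. Leaving out a single library put the value with vehicle between 0.19 and 0.51. Hoxb6 was at 0.943, 1.48 and 1.51 CPM in W20_PTH and 1.55, 2.81 and 2.04 CPM in Y428F_PTH, a difference of 0.70 (SE 0.28, edgeR adjusted p = 0.0473). The call was lost in 11 of 19 alternatives, and the difference lay between 0.44 and 0.87 with a library left out. Hoxb4, which promotes growth of blood stem cells, had a log2 difference of -0.40 with vehicle (SE 0.15, edgeR adjusted p = 0.0347), with 8 of 19 alternatives losing the call. Exons of Hoxb2 and Hoxb3 are overlapped by the antisense gene Hoxb3os over 29.7% and 51.5% of their length.

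Hoxd13, which patterns digits, was the one HOXD gene with any count. It had 3, 5 and 3 counts in W20_VEH, 1, 2 and 2 in W20_PTH, 0, 1 and 0 in Y428F_VEH and 0, 1 and 0 in Y428F_PTH. With vehicle the ratio of Y428F to W20 was 0.0925 on 1 against 11 counts (95% exact interval 0.00215 to 0.636, counting error only), and with PTH 0.196 on 1 against 5 counts (0.00413 to 1.75). The call with vehicle (edgeR adjusted p = 0.0379) was lost in 7 of 18 alternatives, and its level in Y428F cells was at or under the limit of 3 counts in every library.

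The clusters also hold 45 non-coding genes, of which 18 had counts. Hoxa11os, transcribed across Hoxa11 on the other strand and overlapping 43.6% of its exon sequence, was at 71.3, 67.2 and 67.0 CPM in W20_VEH and 48.3, 48.5 and 57.8 CPM in W20_PTH. In Y428F cells it was at 57.9, 57.3 and 62.0 CPM with vehicle and 52.2, 43.4 and 47.7 CPM with PTH. It fell with PTH in both lines, by 0.40 on the log2 scale in W20 (edgeR adjusted p = 0.00696) and 0.31 in Y428F cells (edgeR adjusted p = 0.0109). Hoxa11 had the opposite sign in both lines, and passed the test in Y428F cells. Since the labels name both a directional and a non-directional protocol, reads of the sequence shared by this pair cannot be told apart. Between the lines with vehicle, Hoxa11os and 5730596B20Rik were called lower in Y428F cells. No other non-coding gene of the clusters was called for PTH. Hotair, the HOXC transcript described as acting on HOXD, was at 0.728 ± 0.40 CPM in W20_VEH and 1.06 ± 0.22 CPM in Y428F_VEH (SD, n = 3), and was not called in any comparison.

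The partners of HOX proteins on DNA were expressed, 9 of 9 of them. Pbx2 fell with PTH in both lines (-0.26 and -0.45, edgeR adjusted p = 0.034 and 0.000116), and Meis1 and Pknox2 in Y428F cells (-0.51 and -0.30, edgeR adjusted p = 0.0334 and 0.00857), whereas none rose. The median of the list was -0.19 in W20 and -0.13 in Y428F cells. Between the lines with vehicle, 2 were called higher in Y428F cells (Meis2 and Pknox1) and 4 lower, Pknox2, Pbx2 and Meis3 among them. Pknox2 was at 93.0 ± 4.2 CPM in W20_VEH and 50.5 ± 1.1 CPM in Y428F_VEH, a log2 difference of -0.88 (edgeR adjusted p = 1.42e-09).

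The counts of called regulators are read against the shares of all genes given above, 6.88% higher and 4.91% lower with PTH in W20 cells, 6.61% and 5.78% in Y428F cells, and 22.4% and 22.7% between the lines with vehicle. Of 27 Polycomb genes, 4 of 25 tested were higher and 5 lower with PTH in W20 cells, and 4 of 27 higher and 7 lower in Y428F cells. Ezh2, the main H3K27 methyltransferase, fell with PTH in both lines (-0.31 and -0.26, edgeR adjusted p = 0.016 and 0.00537), and Pcgf5, a subunit of a variant complex, rose (0.40 and 0.31). With vehicle, 9 Polycomb genes were higher in Y428F cells and 5 lower, with Suz12, a core subunit, at 76.2 ± 2.4 CPM in W20_VEH and 129 ± 3.6 CPM in Y428F_VEH and Ezh2 at 64.6 ± 3.9 and 94.6 ± 0.10 CPM. With PTH they were 8 and 6. Of 14 Trithorax, MLL and H3K27 demethylase genes, 1 rose and 1 fell with PTH in each line, Wdr5 and Dot1l rising in W20 and Y428F cells respectively and Kdm6b, a demethylase of H3K27, falling in both (-0.43 and -0.30), counts near the shares of all genes. Between the lines, 5 were higher and 1 lower in Y428F cells with vehicle, and 6 and 2 with PTH.

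Of 20 CDX and retinoic acid genes, which act upstream of HOX clusters in the embryo, 1 rose (Rarg, 0.32) and 1 fell among 12 tested with PTH in W20 cells, and 0 rose and 3 fell among 14 in Y428F cells, beside the same shares of all genes. Aldh1a1, a retinoic acid-making enzyme, was at 3.63 ± 0.66 CPM in W20_VEH and 92.4 ± 2.5 CPM in Y428F_VEH (log2 difference 4.66, edgeR adjusted p = 2.01e-18). Cyp26b1, which breaks retinoic acid down, was higher too (1.43 ± 0.20 and 5.70 ± 0.46 CPM), and in all 4 of 14 were higher and 2 lower with vehicle, and 5 and 2 with PTH. Of 24 limb and positional factors, Tbx4 and Tbx5, the genes of hindlimb and forelimb, were among 9 at 0 in all libraries. Pitx1, a hindlimb factor, was at 58.7 ± 2.8 CPM in W20_VEH, 55.6 ± 0.78 in W20_PTH, 47.7 ± 2.2 in Y428F_VEH and 41.3 ± 1.8 in Y428F_PTH. It fell with PTH in Y428F cells (-0.21, edgeR adjusted p = 0.0339), the one call of this list for PTH in that line, and none was called in W20 cells. Between the lines, 2 of 14 (Msx2 and Gli3) were higher in Y428F cells and 9 lower under each treatment, with Shox2, a limb bone gene, at 99.9 ± 4.9 CPM in W20_VEH and 62.9 ± 2.2 CPM in Y428F_VEH.

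The label of stromal cells was checked against markers. Of 12 stromal markers, 11 were detected, Col1a1 being the most abundant, and Thy1 was at 0 in all libraries. Their summed level was 22700 ± 1934 CPM in W20_VEH, 22310 ± 1592 in W20_PTH, 14430 ± 588 in Y428F_VEH and 12090 ± 1439 in Y428F_PTH. With vehicle, 9 of 10 tested were lower in Y428F cells, Lepr alone being higher, beside 22.7% of all genes called lower and 22.4% higher. Detected here means any count: Nt5e had 0 to 2 counts per library and was not tested. Lepr was at trace level in W20 cells, with 0.143, 0.118, 1.03 and 0.630 CPM in the same order, on as few as 1 count. Markers of blood summed to 2.41, 2.21, 7.68 and 8.81 CPM in the same order (8 genes, most abundant Hba-a1, with Cd3e at 0), those of endothelium to 1.42, 1.05, 8.91 and 6.44 CPM (4 genes, most abundant Cdh5) and those of epithelium to 0.624, 0.512, 3.67 and 4.41 CPM (5 genes, most abundant Krt8, with Epcam and Krt5 at 0). Ptprc, Hba-a1, Cdh5, Cdh1 and Krt8 were called higher in Y428F cells with vehicle, Cdh5 from 0.810 ± 0.28 to 7.95 ± 0.86 CPM. Adipocyte markers summed to 58.7, 70.7, 46.5 and 73.3 CPM (4 genes, most abundant Pparg, Adipoq at 0) and chondrocyte markers to 55.2, 53.3, 18.6 and 21.9 CPM (4 genes, most abundant Sox9, Acan and Col9a1 at 0). The stromal, blood, endothelial, epithelial and chondrocyte sums differed between the lines without overlap under both treatments, and the adipocyte sum was higher with PTH in both lines, with Pparg called in each (0.52 and 0.71). Fabp4, another adipocyte marker, was not called for PTH (-0.09 in W20 and 0.32 in Y428F cells), and with vehicle it was lower in Y428F cells (-2.03) whereas Pparg was higher (0.33). Of the 10 stromal markers tested, 1 was called lower with PTH in W20 cells (Pdgfra, -0.59), beside 4.91% of all genes. In Y428F cells 2 were called lower with PTH (Pdgfra, -0.73, and Col1a1, -0.33), beside 5.78%, and 0 were called higher in either line. The part of these levels in the HOX differences was not tested.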

How the data were processed

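Total RNA of 12 libraries was sequenced after poly-A selection. The authors mapped reads with STAR 2.7.10b to GRCm39 with the GENCODE basic annotation (vM31) and deposited RSEM expected counts per gene, not scaled for library size. Gene names, positions and exon lengths came from GENCODE vM39 on the same build, which matched 56236 of 56980 identifiers. These were rounded to integers, then fitted by edgeR 4.0.16 in R 4.3.3 (quasi-likelihood test, TMM, genes with at least 10 counts in total, Benjamini-Hochberg adjustment over all genes tested). PTH in W20 cells was fitted on 6 libraries, the other comparisons on all 12. CPM used TMM factors over 12 libraries and was divided by kb of exon union to compare genes. Groups came from the titles. Intervals of log2 differences use the standard errors of the edgeR fit and include the spread between libraries, whereas count limits and the exact interval of a count ratio cover counting error only.

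Named genes were the 3 most abundant HOX genes per kb and the most abundant of each cluster, per comparison up to 8 called genes with the largest change at a mean of at least 1 CPM, and genes called for the difference in response. Other called members were named after their values were seen. The members, lists and the split by paralog number were chosen with earlier results of these data known. Alternatives were DESeq2 1.42.0, its size factors, library totals, other filters and limits, the replicate number as a block, and each library left out in turn. The scripts were tested on simulated data. Some items, 1 HOX gene and 1 promoter sequence among them, are not reported singly here.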

Additional observations from a re-analysis of the deposited data

Results flagged for a closer look

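Hoxc13 stands here because its response to PTH differed between the lines by a test of the difference itself. The log2 difference in response was 0.66 (Y428F minus W20, edgeR adjusted p = 0.0162), and Hoxc13 was above all vehicle libraries of its line in 3 of 3 Y428F_PTH libraries and 0 of 3 W20_PTH libraries. The call was lost in 7 of 19 alternative settings. Itga5, an integrin gene within 500 kb of HOXC, met the same criterion with the opposite sign, at -0.50 (edgeR adjusted p = 0.025). It was at 218, 254 and 258 CPM in W20_VEH and 387, 409 and 363 CPM in W20_PTH, and at 269, 266 and 266 CPM in Y428F_VEH and 271, 319 and 308 CPM in Y428F_PTH. Its increase passed the test in W20 cells (0.67, edgeR adjusted p = 5.9e-05) and not in Y428F cells (0.16, edgeR adjusted p = 0.146).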

How the results depend on the processing

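Of 961 values of 53 named results under the alternatives, 847 kept their direction and side of the limit, 91 lost and 9 gained a call, and 14 changed sign. The cause of these changes was not tested. With limits of 0.01 on the adjusted p and 0.3 on the log2 change, the number of HOX genes called went from 4 to 1 for PTH in W20 cells, from 6 to 3 in Y428F cells and from 1 to 0 for the difference in response. Without a filter on low counts it was 9 in W20 cells and 2 for the difference, and with DESeq2 2 for the difference. Leaving out each library gave 1 to 7 genes in W20 cells, 5 to 7 in Y428F cells, 9 to 15 between the lines with vehicle, the 9 arising without W20_VEH replicate 2, 12 to 14 with PTH and 0 to 1 for the difference. With the longest transcript in place of the exon union, the HOXA share was 69.46% in W20_VEH, 74.91% in W20_PTH, 59.96% in Y428F_VEH and 62.26% in Y428F_PTH.

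The values that changed sign were all near 0 or at trace counts. Hoxc11 for PTH in W20 cells went to -0.053 with library totals, -0.00076 in the fit of 12 libraries and as low as -0.028, or -0.0039, with a library left out (range -0.028 to 0.043). Hoxc11 between the lines with vehicle ranged from -0.048 to 0.034 with a library left out, and up to 0.057 over all alternatives (-0.048, -0.0275, -0.0186, -0.00374, -0.00357 and -0.00356 where it was negative). Hoxd13 for PTH in Y428F cells ranged from -1.82 to 1.86 (-0.37 in the other negative ones), and for the difference from -0.86 to 2.82.

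Replicate numbers were shared by all groups, but same-numbered libraries did not deviate together (mean correlation 0.012 over 18 pairs, range -0.11 to 0.18). With the replicate number as a block, the HOX genes called were 3 for PTH in W20 cells, 7 in Y428F cells, 13 between the lines under each treatment and 1 for the difference in response.

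Depth limits the low genes most: 13 HOX genes had 0 counts, and Hoxa2, Hoxa4, Hoxa6, Hoxb5, Hoxc5, Hoxc8 and Hoxd13 had 14 counts or fewer in some library.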
